A study of Mus musculus with 6 samples.

Results

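A set of 10 genes of the Notch pathway, Dll1, Jag2, Notch2, Notch3, Mfng, Rbpj, Hes1, Hes3, Hes5 and Hes6, were followed in whole mouse embryos at embryonic day 9.5 that lacked the reduced folate carrier RFC1, encoded by Slc19a1, and in their wild-type littermates. They were chosen by name, as every probe set annotated to 1 of these symbols alone, which gave 17 of the 45101 probe sets on the array and 10 of the 18194 genes with a single symbol. The 3 RFC1-/- embryos had craniorachiscisis, an open neural tube, and no chorioallantoic fusion, and each was paired with an RFC1+/+ littermate with a normal neural tube and chorioallantois, 1 pair from each of 3 litters. The dams of both groups were RFC1+/- mice on an inbred SWV background and had received 25 mg/kg folic acid daily by subcutaneous injection. The inactivated allele had been moved onto SWV from a C57BL/6J hybrid stock and was not limited to a tissue, and every RFC1-/- embryo on the arrays was affected, so the effect of the genotype and that of the malformation cannot be told apart. The study describes RFC1-/- embryos at this dose as developmentally delayed. The sources used here state no somite counts, so an effect of stage cannot be told apart from that of the genotype either. Since RNA came from the whole embryo, no value below belongs to the neural tube alone.

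Notch receptors sit in the membrane and are switched on by ligands of the Delta and Jagged families on neighbouring cells. The freed intracellular part of the receptor enters the nucleus, joins the DNA-binding protein RBPJ and turns on genes of the Hes and Hey family, which are bHLH repressors. In the neural tube these repressors hold cells as progenitors by restraining proneural factors, while cells that make more Delta go on to become neurons. The same pathway also times the segmentation of the presomitic mesoderm and acts in arterial endothelium.

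Values are on the log2 scale of robust multiarray averaging (RMA), so that a difference of 1 is a 2-fold change, and they compare 1 probe set between embryos, not 1 gene with another. Medians of the 6 arrays lay between 5.43 and 5.49, arrays correlated with each other between 0.984 and 0.996, and precision was limited by there being 6 arrays. On its brightest probe set Slc19a1 itself measured 9.97, 10.10 and 9.84 in RFC1-/- embryos of litters 1, 2 and 3, against 9.11, 9.10 and 8.89 in their RFC1+/+ littermates, and it passed as higher (log2 difference 0.93, adjusted p = 0.00809 from limma). Its probe set 1448132_at passed as higher too (log2 difference 1.19, limma adjusted p = 0.00701). The dim 1449744_at, with a mean level of 4.96, did not pass (0.02, limma adjusted p = 0.963). The sources used here do not say which part of the gene was deleted, so these probe sets do not check the genotypes, which were taken from the labels. Differences are RFC1-/- minus RFC1+/+ within a litter, fitted with limma over all probe sets with the litter as a block, and a probe set passed at an adjusted p under 0.05.

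Hes5, a Hes repressor of neural progenitors, was the 1 member that passed the test as lower in RFC1-/- embryos, and it did so on both of its probe sets. No member passed as higher. Here and below, fell and rose mean passing the test as lower or higher. On its brighter probe set, 1456010_x_at, Hes5 measured 9.09, 9.71 and 8.29 in the RFC1-/- embryos of litters 1, 2 and 3, against 10.38, 10.71 and 10.32 in their RFC1+/+ littermates. The highest RFC1-/- embryo lay below the lowest RFC1+/+ embryo, and the RFC1-/- embryo of litter 3 was the lowest of all. The signal was 2.71-fold lower, a log2 difference of -1.44 ± 0.19 (standard error, here and below after ±; limma adjusted p = 0.0148). On the other probe set, 1423146_at, it measured 7.003, 7.38 and 6.82 in RFC1-/- embryos, against 8.01, 8.34 and 7.78 in RFC1+/+ embryos, again without overlap, and the signal was 1.97-fold lower, at -0.98 ± 0.09 on the log2 scale (limma adjusted p = 0.00701). The differences in litters 1, 2 and 3 were -1.29, -0.998 and -2.03 on the brighter probe set and -1.004, -0.96 and -0.96 on the other, so that litter 3 stood apart on the first and not on the second. The suffix of the brighter probe set marks probes that can also match other sequences, whereas the other probe set carries no such mark. Both calls ended without litter 1 (log2 differences -1.51 and -0.96, adjusted p = 0.0843 and 0.0667 from limma), a setting in which 129 probe sets of the whole table passed. Under the variation filter of the methods 1423146_at did not pass (limma adjusted p = 0.0658) and 1456010_x_at did. That filtered fit gave both the same standard error, 0.39, against 0.09 and 0.19 above. A probe set's own litter spread therefore did not count there. In RNA from whole embryos, fewer Hes5-expressing cells and less Hes5 RNA per cell cannot be told apart. The study lists Hes5 among the genes it selected on these same arrays, so this result is not independent evidence.

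**Figure D1:**
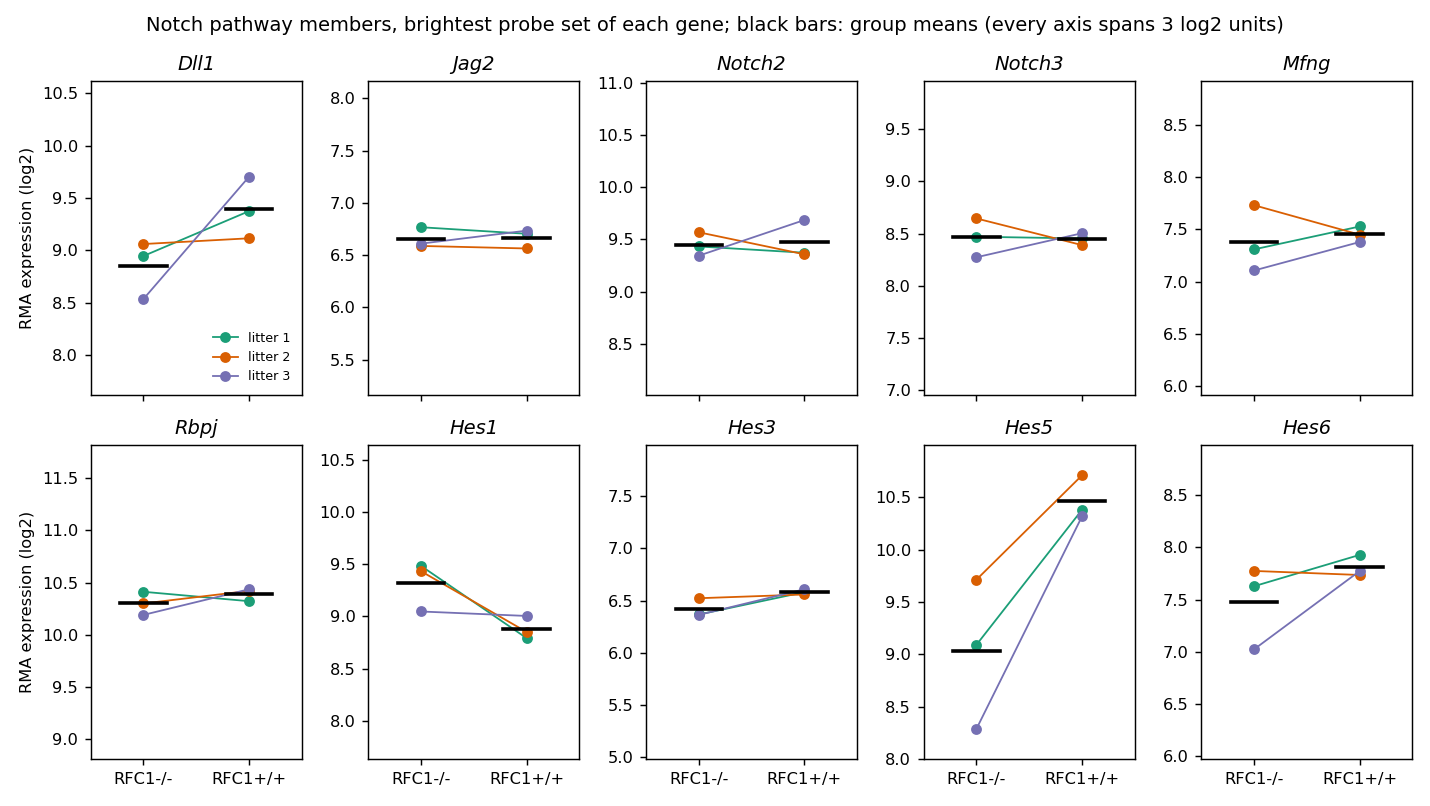
RMA expression on the log2 scale (y axis, each spanning 3 units) of the 10 Notch pathway members on their brightest probe sets in RFC1-/- embryos (left in each panel) and RFC1+/+ littermates (right), with lines joining the embryos of a litter and black bars for the group means. The lines of Hes5 run between means of 9.03 in RFC1-/- and 10.47 in RFC1+/+ embryos, those of Hes1 lean the other way, and those of Notch2, Notch3, Jag2, Mfng and Rbpj are near level.

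The bases before the start of Hes5 are shown because this gene is the member that fell and is a textbook target of RBPJ, whose core site reads GTGGGAA on 1 strand and TTCCCAC on the other. Beside it stand Hes7, a Hes gene of the segmentation clock that did not pass the test, and Nrarp, a Notch-induced regulator outside the 10 members that fell. The sequences come from RefSeq (GRCm38.p6) and give the 250 bases before the start, 5′ to 3′ on the plus strand, at chr4:154960673-154960922 for Hes5, chr11:69120203-69120452 for Hes7 and chr2:25180508-25180757 for Nrarp. Capitals mark GTGGGAA or TTCCCAC, and CACGTG, the E box that Hes and Hey proteins can bind.
Hes5: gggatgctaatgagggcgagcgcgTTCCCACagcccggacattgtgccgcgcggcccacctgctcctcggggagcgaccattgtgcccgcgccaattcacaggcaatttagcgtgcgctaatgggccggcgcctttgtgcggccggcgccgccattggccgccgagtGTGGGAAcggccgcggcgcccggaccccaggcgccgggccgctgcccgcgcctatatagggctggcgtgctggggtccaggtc
Hes7: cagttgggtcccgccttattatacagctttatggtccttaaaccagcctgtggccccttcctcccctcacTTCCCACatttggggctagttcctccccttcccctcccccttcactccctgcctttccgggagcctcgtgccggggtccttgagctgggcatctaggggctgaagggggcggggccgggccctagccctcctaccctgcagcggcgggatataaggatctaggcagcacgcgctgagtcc
Nrarp: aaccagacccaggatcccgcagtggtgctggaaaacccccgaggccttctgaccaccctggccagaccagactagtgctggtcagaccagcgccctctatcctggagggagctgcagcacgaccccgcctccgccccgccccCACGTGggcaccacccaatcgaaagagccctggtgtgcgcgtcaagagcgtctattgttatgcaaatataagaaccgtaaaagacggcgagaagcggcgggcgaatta
The Hes5 promoter held the RBPJ core at 2 places, 226 bases before the start as TTCCCAC and 83 bases before it as GTGGGAA. Over windows of 250 bases before to 50 after a start, searched on both strands, 6.38% of the 32851 promoters in the table held this core at least once and 0.256% held it at 2 or more places. Hes7 held it once, 180 bases before the start. Hey2, the Hey gene of heart and arteries, held it 207 and 4 bases before its start. Nrarp held no GTGGGAA in this window and 1 CACGTG, 108 bases before the start, a word found in 7.15% of promoters. Of the 10 members, 7 had 10 promoter entries in the table, and Hes1, Hes3 and Mfng had none. Among these 7 genes Hes5 alone held GTGGGAA, none held the variant GTGAGAA (4.59% of promoters) or CACGTG, and Hes6, Dll1, Notch2 and Notch3 held the N box CACNAG, which 42.5% of promoters hold. A match describes letters in these windows and was not tested as a site.

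The other Hes members did not pass the test, and their mean differences did not share a direction. Hes1, a Hes repressor with a wide range in the embryo, measured 9.48, 9.43 and 9.05 in the RFC1-/- embryos of litters 1, 2 and 3, against 8.79, 8.85 and 9.004 in their RFC1+/+ littermates. All RFC1-/- values lay above all RFC1+/+ values, by little in litter 3. The log2 difference was 0.44 ± 0.14 (interval at 95% confidence 0.10 to 0.77, adjusted p = 0.194 from limma), and without litter 3 it was 0.64 and passed (limma adjusted p = 0.0261). The litter difference of Hes5 minus that of Hes1 was -1.98, -1.58 and -2.07 in litters 1, 2 and 3, with a mean of -1.88 (SD 0.26, n = 3 litters). The exact two-sided permutation test over 3 litters gave p = 0.25, the smallest it allows, and this pair was chosen after its values were seen.

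Hes3, a repressor of early neuroepithelium, measured 6.37, 6.52 and 6.36 in RFC1-/- embryos, against 6.58, 6.56 and 6.61 in RFC1+/+ embryos. The groups did not overlap, but they lay close, with a log2 difference of -0.17 ± 0.10 (limma adjusted p = 0.538). Hes6, a relative that opposes Hes1 and promotes neuronal differentiation, measured 7.63, 7.77 and 7.02 in RFC1-/- embryos, against 7.93, 7.74 and 7.77 in RFC1+/+ embryos on its brighter probe set, 1436050_x_at. The RFC1-/- embryo of litter 3 was low and those of the other litters lay near the RFC1+/+ range. The log2 difference was -0.34 ± 0.15 (interval -0.70 to 0.03), and on the other probe set, 1452021_a_at, it was -0.21 (interval -0.54 to 0.13, adjusted p = 0.373 and 0.603 from limma).

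Dll1, the Delta ligand shown by newborn neurons and by presomitic mesoderm, was lower in each RFC1-/- embryo than in its littermate but did not pass the test. It measured 8.95, 9.06 and 8.53 in RFC1-/- embryos of litters 1, 2 and 3, against 9.37, 9.12 and 9.70 in RFC1+/+ embryos. The groups did not overlap, and the gap came mostly from litter 3, with litter differences of -0.43, -0.05 and -1.17. The mean log2 difference was -0.55 ± 0.20 (interval -1.02 to -0.08, adjusted p = 0.244 from limma). Jag2, a Jagged ligand, measured 6.77, 6.59 and 6.61 in RFC1-/- embryos, against 6.70, 6.56 and 6.73 in RFC1+/+ embryos, which overlapped. Its log2 difference was -0.01, with an interval of -0.25 to 0.22, on 1426430_at, and 0.05 on the dimmer 1426431_at (limma adjusted p = 0.980 and 0.931).

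The receptors of the list measured nearly alike in both groups. Notch2 on its brighter probe set, 1455556_at, measured 9.43, 9.57 and 9.34 in RFC1-/- embryos, against 9.37, 9.36 and 9.69 in RFC1+/+ embryos. Notch3 on 1421965_s_at measured 8.47, 8.64 and 8.27 in RFC1-/- embryos, against 8.45, 8.39 and 8.50 in RFC1+/+ embryos. The groups overlapped for both receptors, and the litters pointed in different directions. The intervals of the log2 difference were -0.33 to 0.28 for Notch2 and -0.27 to 0.30 for Notch3, around means of -0.02 and 0.01 (limma adjusted p = 0.970 and 0.982). The second probe sets, Notch2 1451889_at and Notch3 1421964_at, had mean levels of 4.95 and 4.65, below the median of 5.47 over all probe sets, and were not shown to lie above background.

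Mfng, a Fringe glycosyltransferase that modifies Notch receptors, measured 7.31, 7.73 and 7.11 in RFC1-/- embryos, against 7.53, 7.45 and 7.38 in RFC1+/+ embryos (log2 difference -0.07, interval -0.38 to 0.24, adjusted p = 0.895 from limma). Its RFC1-/- embryos spread on both sides of the RFC1+/+ embryos. Rbpj, the DNA-binding partner of the receptor's intracellular part, measured 10.41, 10.30 and 10.19 in RFC1-/- embryos, against 10.32, 10.42 and 10.44 in RFC1+/+ embryos on 1454896_at. Its 3 probe sets differed by -0.09, 0.07 and -0.09, and their intervals together ran from -0.35 to 0.33 on the log2 scale (limma adjusted p = 0.803, 0.861 and 0.775). A 2-fold change in either direction lay outside the unadjusted intervals of the brightest probe sets of Jag2, Notch2, Notch3, Mfng and Rbpj.

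Counted over the members, 2 of 17 probe sets fell, both of Hes5, against 0.882% of all probe sets, and 0 rose, against 1.87% (limma). At an unadjusted p under 0.05 the count was 4 of 17, with Dll1 and Hes1 added, against 15.1% of all probe sets. By gene, on the brightest probe set, 1 of 10 fell and 0 rose, against 1.33% and 2.96% of all genes. Groups did not overlap on 4 member probe sets on the low side (Hes5 on both, Dll1 and Hes3), against 11.5% of all probe sets, and on 1 on the high side (Hes1), against 9.81%. Their median log2 difference was -0.09 over the 17 probe sets and -0.02 over all probe sets. Without Hes5 the remaining 9 genes had a median of -0.07, with litter medians of 0.02, 0.04 and -0.25 in litters 1, 2 and 3.

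**Figure D2:**
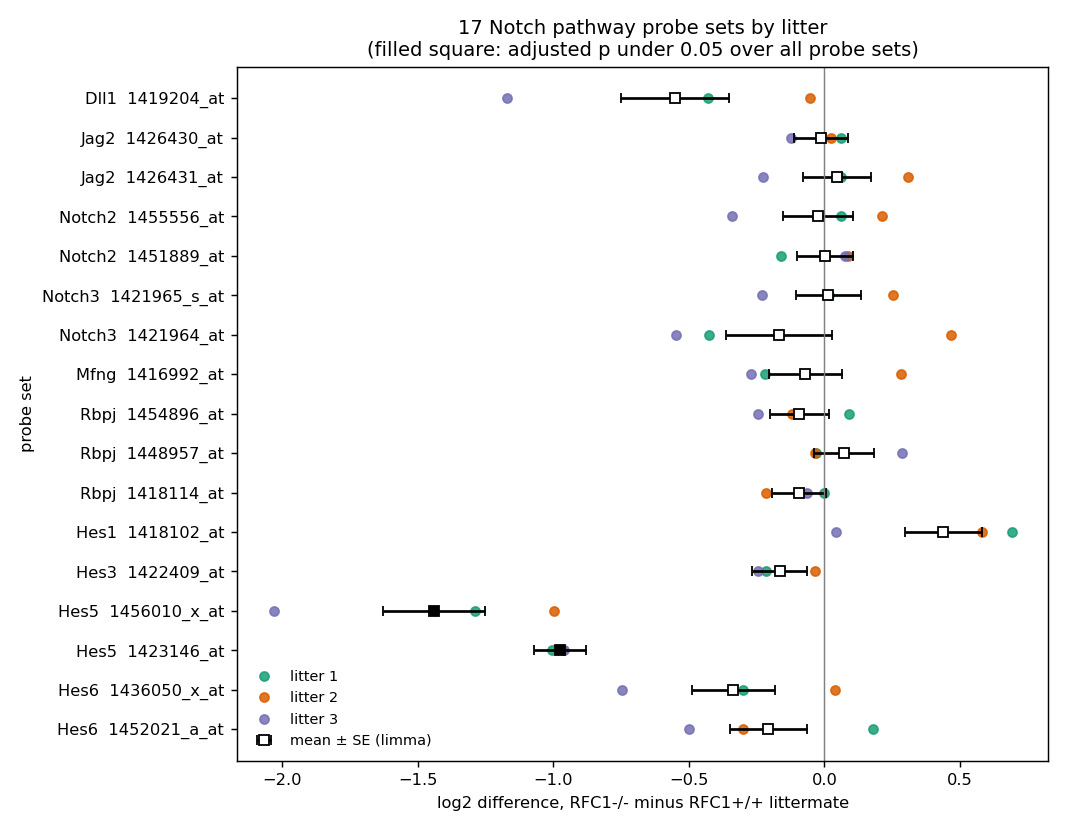
Log2 difference between the RFC1-/- embryo and its RFC1+/+ littermate (x axis) for the 17 member probe sets (y axis, gene and probe set), with coloured points for the 3 litters and squares for the mean with 1 standard error from limma, filled where the adjusted p is under 0.05. The Hes5 probe sets, at -1.44 and -0.98, are the filled ones. The points of litter 3 lie leftmost for all but Hes5 1423146_at, Notch2 1451889_at, Rbpj 1448957_at and Rbpj 1418114_at.

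The wider pathway was then read by role in 59 measured genes of 63 listed, each on its brightest probe set. Of these, 3 fell and 0 rose, namely Hes5, Dtx4 and Nrarp, against 1.33% and 2.96% of all genes, and 15 of 59 had an unadjusted p under 0.05, against 19% of all genes. Dtx4, a ubiquitin ligase of the Deltex family that acts on Notch, measured 7.997, 8.23 and 7.81 in RFC1-/- embryos of litters 1, 2 and 3, against 9.19, 9.05 and 8.42 in their RFC1+/+ littermates. The groups did not overlap, and the log2 difference was -0.88 ± 0.13 (limma adjusted p = 0.0213). The other Dtx4 probe set, 1455711_at, fell as well, by 0.57 on the log2 scale (limma adjusted p = 0.0327). Nrarp, which Notch signalling induces and which feeds back on the receptor's nuclear complex, measured 9.67, 9.52 and 9.47 in RFC1-/- embryos, against 10.53, 9.92 and 10.02 in RFC1+/+ embryos. These did not overlap, and the log2 difference was -0.60 ± 0.12 (limma adjusted p = 0.0492), close to the threshold. Its other probe set, 1417986_at, differed by -0.33, which missed the threshold (limma adjusted p = 0.213). Without litter 1 neither gene passed (adjusted p = 0.140 for Dtx4 and 0.324 for Nrarp from limma), nor without litter 2 (0.0611 and 0.0747), and without litter 3 Dtx4 passed and Nrarp did not (0.00737 and 0.0551). Both calls also ended with no litter block (limma adjusted p = 0.0584 for Dtx4 and 0.0858 for Nrarp) and under the variation filter of the methods (limma adjusted p = 0.104 and 0.271). The filtered fit gave both genes the same standard error, 0.39, whatever the spread of their litters. The call of Nrarp also ended under the random-variance test of the methods (adjusted p = 0.0508). In limma it ended with a second quantile normalization (adjusted p = 0.0506), centring (0.0609) and the mean of its probe sets (0.0579).

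The median log2 difference of each role lay between -0.20 and 0.02. Among the 7 ligands none passed. Dll3, the divergent Delta of the presomitic mesoderm, had litter differences of -0.48, 0.36 and -1.04, and Dll4, the Delta ligand of arteries, differed by 0.20, Jag1 by -0.02, Dner by -0.42 and Dlk1 by 0.56 (adjusted p between 0.139 and 0.973 from limma over these). Notch1, the main receptor of the neural tube, measured 9.70, 9.71 and 9.78 in RFC1-/- embryos, against 10.10, 9.79 and 9.78 in RFC1+/+ embryos, and its log2 difference was -0.16 (interval -0.43 to 0.11). Notch4, a receptor of endothelium, differed by 0.44 (interval -0.0042 to 0.88), with litter differences of 0.32, 1.02 and -0.02. Neither receptor passed (limma adjusted p = 0.624 and 0.337).

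Of the remaining family repressors, Hey2 was above its littermate in each litter, with 7.32, 7.22 and 7.18 in RFC1-/- embryos, against 6.73, 6.63 and 6.86 in RFC1+/+ embryos. Its groups did not overlap, and it missed the threshold (0.50 ± 0.11 on the log2 scale, limma adjusted p = 0.0611). Hes7 and Hey1 differed by 0.12 and 0.15 and Heyl by -0.34, without passing. Heyl was dim, with a mean level of 4.96. Its still dimmer probe sets 1419302_at and 1419303_at differed by -0.53 and -0.28, without overlap of the groups and without passing (limma adjusted p = 0.137 and 0.268). Fbxw7, the ubiquitin ligase subunit that clears the receptor's intracellular part, had a log2 difference of -0.47 (limma adjusted p = 0.0622, and 0.0479 when 1 probe set a gene was tested). Furin, which cleaves the receptor on its way to the membrane, had 0.45 (limma adjusted p = 0.0733). None of the 8 proteolysis genes, 14 genes of the nuclear complex, 5 glycosylation genes or 4 genes of ligand endocytosis passed.

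**Figure D3:**
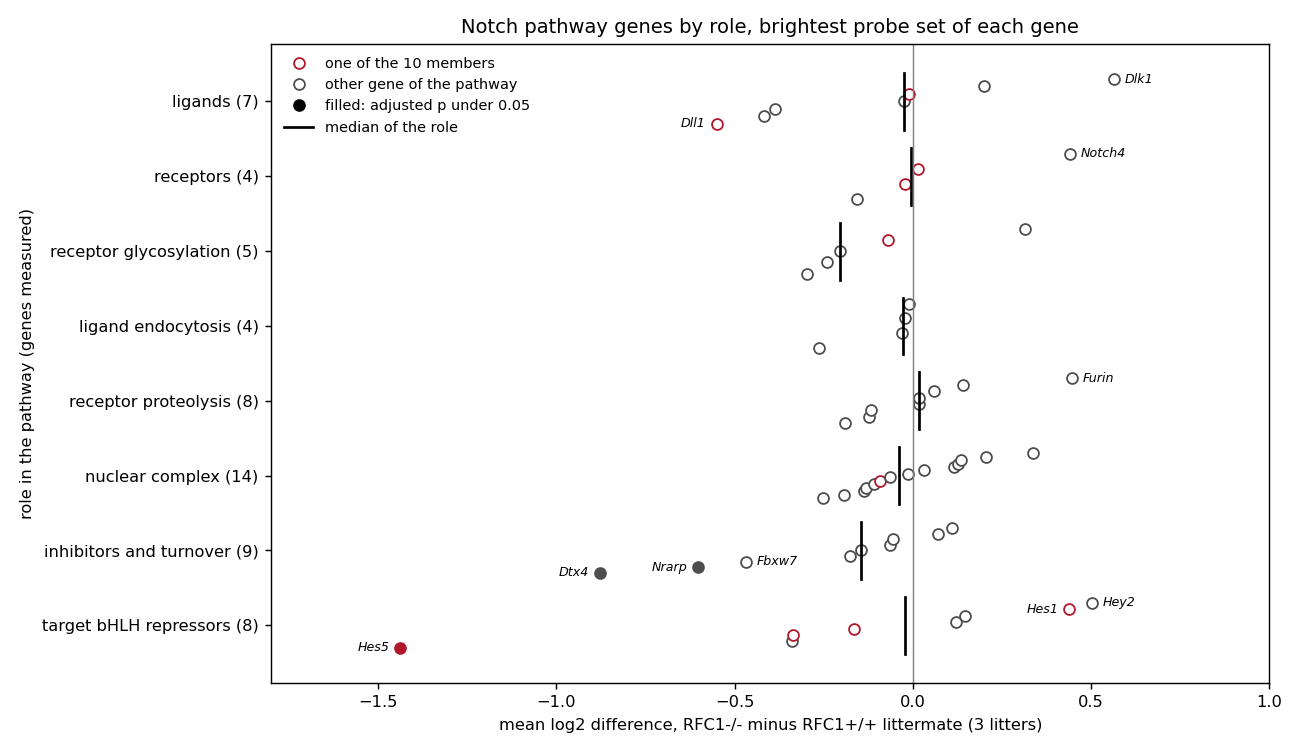
Mean log2 difference of the 3 litters, RFC1-/- minus RFC1+/+ (x axis), for 59 Notch pathway genes on their brightest probe sets, grouped by role (y axis, genes measured in brackets), with red for the 10 members, filled points for an adjusted p under 0.05 from limma and black bars for role medians. Filled points are Hes5 at -1.44, Dtx4 at -0.88 and Nrarp at -0.60, and role medians lie between -0.20 and 0.02.

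Neural markers were lower along with Hes5. Of 25 neural progenitor genes 15 fell and 0 rose, against 1.33% and 2.96% of all genes, with a median log2 difference of -0.74. Dbx1, a homeobox gene of the intermediate neural tube, Zic1, a dorsal zinc finger factor, and Rfx4, a factor of neural tube progenitors, had log2 differences of -2.002, -1.61 and -1.49, with limma's adjusted p at 0.00775, 0.0130 and 0.00775. The median level of this list was 7.45, 7.54 and 6.81 in RFC1-/- embryos of litters 1, 2 and 3, against 8.57, 8.46 and 8.60 in RFC1+/+ embryos, so the RFC1-/- embryo of litter 3, the lowest for Hes5, was also the lowest here. Summed on the linear scale, the list ran from 7195 to 10081 in RFC1-/- embryos, against 13619 to 14375 in RFC1+/+ embryos. Sox2, a defining gene of neural progenitors, measured 10.57, 10.65 and 10.12 in RFC1-/- embryos, against 10.69, 11.06 and 11.08 in RFC1+/+ embryos, which did not overlap, and it did not pass (log2 difference -0.50, adjusted p = 0.193 from limma).

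Of 10 proneural factors 6 fell and 0 rose, against 1.33% and 2.96% of all genes, with a median of -1.28. Neurog1, which drives sensory and cranial neurogenesis, had a log2 difference of -2.32, Neurod1 of -2.07 and Neurog2 of -1.73 (limma adjusted p = 0.0140, 0.00547 and 0.00865). Only 2 of the 10 had a mean level above the median over all probe sets. Neurod1 measured 4.05, 4.11 and 3.68 in RFC1-/- embryos, values not shown to lie above background. Of 16 neuronal genes 8 fell and 0 rose, with a median of -1.03. In litters 1, 2 and 3 the median difference was -1.72, -0.85 and -0.66 for proneural factors and -1.26, -0.89 and -0.85 for neuronal genes. For neural progenitor genes it was -0.78, -0.68 and -1.02. Litter 3 thus had the smallest drop on the proneural and neuronal lists and the largest on the progenitor list. The part of these cell types in the Hes5 result was not tested.

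The counts of the next lists stand beside 1.33% of all genes lower and 2.96% higher. Presomitic mesoderm and segmentation clock genes share Hes7, Lfng, Dll3 and Nrarp with the pathway lists. Of these 12 genes 1 was lower, Nrarp itself, and 0 were higher, with a median of -0.11. Only 6 of the 12 had a mean level above 5.47, the median over all probe sets. The dim others bear no statement on absence of change. Of 14 endothelial genes, which include Dll4 and Notch4, and Sox17 that is also on the visceral endoderm list, 5 rose, Sox17 among them, and 0 fell, with a median of 0.48, and Kdr, a VEGF receptor, had a log2 difference of 0.84 (limma adjusted p = 0.0112). Of 18 visceral endoderm genes 17 rose and 0 fell. Their median level was 10.07, 9.01 and 10.97 in RFC1-/- embryos of litters 1, 2 and 3, against 7.38, 6.41 and 6.13 in RFC1+/+ embryos, and it was highest in the RFC1-/- embryo of litter 3. Summed on the linear scale they ran from 25413 to 67852 in RFC1-/- embryos, against 2974 to 7061 in RFC1+/+ embryos. Of 11 primitive erythroid genes 8 fell and 0 rose, with a median of -2.34. The part of these cell types in the Notch values was not tested. Somite genes had 3 of 10 lower and 0 higher, with a median of -0.59.

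**Figure D4:**
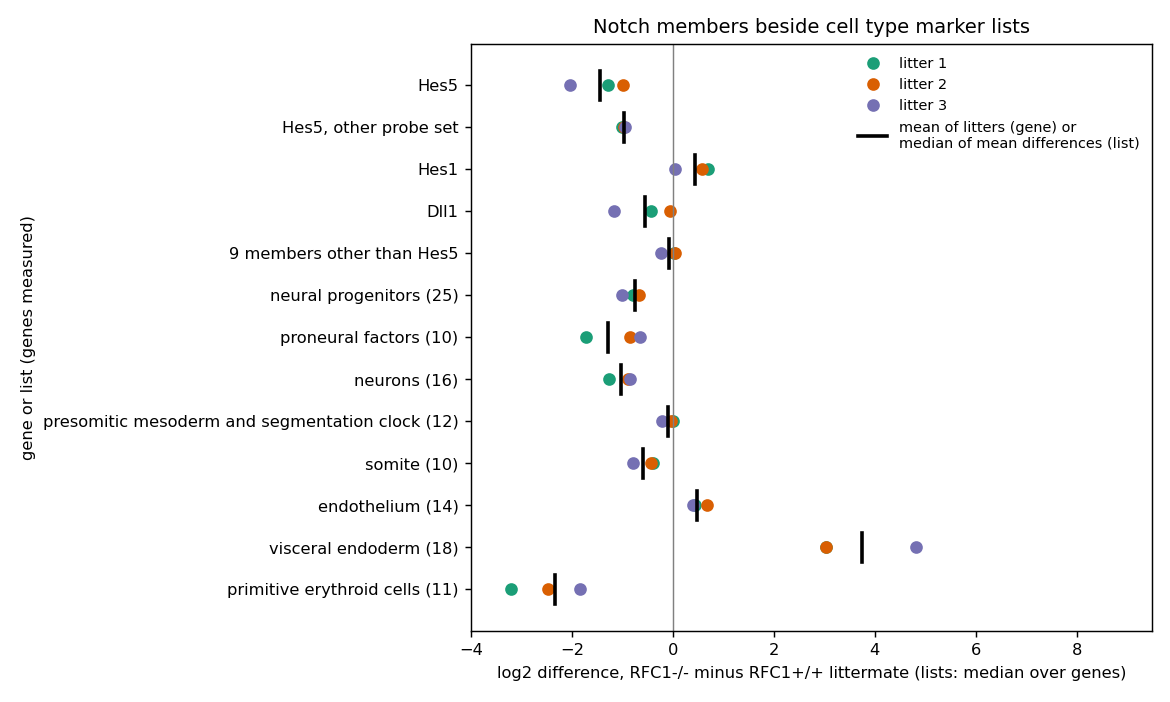
Log2 difference by litter, RFC1-/- minus RFC1+/+ littermate (x axis), for single Notch genes and, as the median over genes, for the 9 members other than Hes5 and for marker lists (y axis, genes measured in brackets), with coloured points for litters and black bars for the mean of the litters or the median of the mean differences. Hes5 lies at -1.44 and -0.98, the neural progenitor median at -0.74, the other members at -0.07 and visceral endoderm genes at 3.74.

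Likeness to Hes5 over the 6 arrays was measured by Pearson's r on its brighter probe set, among 17161 probe sets of other single genes with a mean of at least 6. With 6 points in 2 groups many probe sets come near 1, and r is given as a description. The closest were Jmy (r = 0.998), Samd14 (0.997), Sfrp2 (0.995), Aff3 (0.994) and Ado (0.994). Of these Sfrp2, a secreted Wnt antagonist, passed the test, with 8.21, 8.66 and 7.66 in RFC1-/- embryos, against 9.01, 9.33 and 9.17 in RFC1+/+ embryos (-0.995 on the log2 scale, limma adjusted p = 0.0325). The other Hes5 probe set had r = 0.962, Hes3 0.916, Hes6 0.857, Dll1 0.804, Rbpj 0.675 and Mfng 0.614. Notch3 had 0.376, Notch2 0.249, Jag2 -0.045 and Hes1 -0.50. Outside the members, Dtx4 had 0.882 and Nrarp 0.707. For Dll1 the closest were Helq, Trmt2a, Drosha, Polr2h and Rbm28, with r between 0.995 and 0.998 and none of them past the test.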

How the data were processed

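Whole embryos at embryonic day 9.5 were hybridised to Affymetrix whole-genome mouse arrays after 2-cycle labelling, 1 embryo per array, with 3 RFC1-/- and 3 RFC1+/+ embryos from 3 litters. The authors background-corrected the perfect-match probes, quantile-normalized the arrays and summarised probe sets by median polish (RMA), and the deposited values are log2 expression of 45101 probe sets. For software versions and genome build: not given in the sources used here. The steps compress differences of dim probe sets and assume like signal distributions in all embryos. The variation filter of the methods had not been applied to the table, and would leave 2982 probe sets. Arrays give no read depth, and their number limits the precision.

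Platform annotation gave 34958 probe sets 1 gene symbol, 932 several and 9211 none, and 34754 of the first were found in the RefSeq table, with 0 symbols changed. No value column was unused (0). A gene was represented by its probe set with the highest mean. Differences were tested with limma 3.58.1 (R 4.3.3), with the litter as a block, empirical Bayes moderation and Benjamini-Hochberg adjustment over all probe sets, at 0.05 and with intervals at 95% confidence that are not adjusted. The titles give both embryos of a pair the same replicate number, and the methods pair littermates, so each pair was taken as a litter. The deviations of littermates from their group means correlated at 0.10, -0.05 and -0.15 in litters 1, 2 and 3, so the pairing rests on the titles and the methods and not on these values. The fit was also run on simulated data with noise of the same spread in both groups. That run bears on the working of the fit and not on the calls in these embryos. Tables were made in Python 3.11.15 with numpy 2.4.6, pandas 2.3.3 and scipy 1.17.1, and plots with matplotlib 3.10.9.

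The members and gene lists were chosen with earlier results of these data known. Named were all members, the pathway genes past the threshold, the other canonical ligands, receptors and Hes and Hey genes, up to 3 marker genes a list and the 5 probe sets most like Hes5 and Dll1. Fbxw7 and Furin were named after their values were seen. Listed genes without a probe set of a single symbol and the proteins of the members were not analysed here. The alternatives were a fit with no litter block, an intensity trend in the variance, the random-variance test of the methods, a filter on dim probe sets, the variation filter, 1 probe set or the mean of probe sets for each gene, a second quantile normalization, centring on the median, and leaving out each litter.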

Additional observations from a re-analysis of the deposited data

How the results depend on the processing

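Over 12 alternatives, 158 of 174 differences of member probe sets kept their direction and their side of the threshold, 12 changed sign without a call, 3 lost a call, 1 gained one and 0 called differences changed sign. The calls lost were those of both Hes5 probe sets without litter 1 and of Hes5 1423146_at under the variation filter, and the call gained was that of Hes1 without litter 3. Leaving out a litter gave 0 to 2 member probe sets lower and 0 to 1 higher, 0 to 1 member genes lower and 0 to 1 higher, and 0 to 2 wider pathway genes lower and 0 to 2 higher. The number of probe sets called in the whole table ran with this, 129 without litter 1, 841 without litter 2 and 1585 without litter 3, against 1241 with all litters. With no replicate block, the pairing of littermates left out, 1 pathway gene was lower (Hes5) and 2 were higher (Furin and Hey2), while both Hes5 probe sets still passed. Under the variation filter 1 member probe set and 1 pathway gene were lower, with 4 member probe sets and 8 pathway genes left in the test. The 4 member probe sets had the same standard error in that fit, 0.39, so their own litter spread did not count. With 1 probe set a gene 4 pathway genes were lower, Fbxw7 added, and 1 was higher (Hey2), and with probe sets averaged by gene 2 were lower (Hes5 and Dtx4) and 2 higher (Furin and Hey2). Nrarp lost its call under 9 of 12 alternatives. The cause of these changes was not tested. Dim probe sets, such as those of Notch2, Notch3 and Jag2 below the median level, bear no statement on absence of change.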
